A study of Mus musculus with 36 samples.

Results

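The genes of MHC class I peptide processing were followed in CD8 T cells taken from tumor-bearing mice. The 8 genes were B2m, Tap1, Tap2, Tapbp, Psmb8, Psmb9, Psmb10 and Nlrc5, out of 18193 genes with a value on the arrays. Each gene was chosen by its symbol in the array annotation, and its level was read from its brightest probe set, judged by the mean of all 36 arrays. All 8 were measured, by 14 probe sets in all, and no filter on low values was applied.

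Nearly every nucleated cell shows fragments of its own proteins on MHC class I molecules. The proteasome cuts proteins into peptides, the Tap1-Tap2 transporter moves the peptides into the endoplasmic reticulum, and tapasin (Tapbp) helps to load them onto a heavy chain paired with beta-2 microglobulin (B2m). Interferon gamma replaces the constitutive catalytic subunits Psmb6, Psmb5 and Psmb7 by the immunoproteasome subunits Psmb9, Psmb8 and Psmb10, and Nlrc5 is a transcriptional coactivator of class I genes. A CD8 T cell reads such complexes on other cells with its receptor and carries the same machinery itself, and lymphocytes are known for high class I and immunoproteasome levels.

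The cells were OT-I T cells, whose transgenic receptor sees an ovalbumin peptide on MHC class I; each population carried a short hairpin RNA by transduction and was moved into mice bearing the B16 melanoma. The hairpins were aimed at the mouse genes Ppp2r2d, Egr2, Ptpn2, Arhgap5 or Alk, or at the bacterial control gene LacZ, which the mouse cells lack. CD8 T cells of each of the 6 transductions were recovered under the label tumor and under the label spleen, and each of these 12 groups has 3 arrays, 18 per tissue label. All groups thus share the transgenic receptor, a transduction and a tumor-bearing host. The sources used here do not give host age, time of recovery or the number of animals behind an array, so the p-values measure the spread between these arrays, which may be technical. The labels do not say how many hairpin sequences stand behind a target.

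The values are log2 signals of 3' expression arrays. A difference is the log2 of a fold, and the level of one gene's probes is not comparable with that of another's. Differences were tested in 1 limma fit over all 36 arrays with Benjamini-Hochberg adjustment over all 18193 genes, and a gene is said to have risen or fallen only at an adjusted p under 0.05.

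The tissue labels need care before any direction is read. Over 12 pigment cell genes the summed linear signal was 8.26 to 19.95 on arrays labelled tumor and 110.4 to 365.4 on arrays labelled spleen, and 11 of the 12 genes were lower under the label tumor. Over 13 macrophage and monocyte genes it was 7.05 to 13.34 under the label tumor and 60.06 to 385 under the label spleen (12 of 13 lower), and over 9 dendritic cell and MHC class II genes 7.98 to 32.36 and 75.31 to 227.4 (6 lower, 2 higher). The pigment cell genes lie on the side opposite to the one the labels name, and the macrophage and MHC class II genes lie on the same side as the pigment cell genes. Each difference between the labels below is therefore given by the labels as they stand and would turn round if they were exchanged. A difference between a hairpin and LacZ within a label would keep its sign and belong to the other label. Other marker lists held genes that were higher under the label tumor. The 8 B cell genes summed to 28.16 to 84 under the label tumor and 16.53 to 30.61 under the label spleen (7 higher). The 6 erythroid genes summed to 2.80 to 158.3 and 1.73 to 5.62 (5 higher), and the 8 neutrophil genes to 1.22 to 19.35 and 1.67 to 4.86 (5 higher). The 6 NK and CD4 T cell genes summed to 28.42 to 69.68 under the label tumor and 8.47 to 24.22 under the label spleen (2 higher, 3 lower), and 12 stromal and endothelial genes to 7.97 to 17.08 and 12.09 to 31.67 (4 higher, 4 lower). The 10 T cell genes summed to 478.4 to 1319 under the label tumor and 609.1 to 1134 under the label spleen (3 higher, 1 lower), and the groups overlapped. Cd8a, the coreceptor that defines CD8 T cells, was 6.25 to 7.21 and 6.13 to 7.46.

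Most cell types express class I genes, so fewer cells of a type and less RNA per cell cannot be told apart in these bulk samples, and the part of these marker lists in the results was not tested. Ptpn2 labelled tumor array 1 stands apart, with a best correlation to any other array of 0.89, against 0.954 to 0.993 for the other 35, and a Gapdh 3' minus 5' difference of 2.94, against 0.25 to 1.39. The floor of 3 arrays (LacZ labelled spleen array 2, Egr2 labelled tumor array 2 and Ptpn2 labelled tumor array 3) was high, at -1.45 to -1.38, against -4.51 to -1.88 elsewhere. Of the hairpin targets, Ppp2r2d fell in its own group under the label spleen (3.31 to 3.88, against 4.31 to 5.51 in LacZ, adjusted p = 0.0286, limma). Ppp2r2d under the label tumor (difference -0.12) and the other 4 targets under either label did not pass.

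On the genome (GRCm38.p6) 5 of the 8 genes lie on chromosome 17 in the MHC region. Psmb9 (probe set 1450696_at) spans chr17:34182030-34187330, Tap1 (1416016_at) chr17:34187556-34197225, Psmb8 (1422962_a_at) chr17:34198195-34201454 and Tap2 (1453913_a_at) chr17:34204479-34216321, with Tapbp (1421812_at) at chr17:33919478-33929290. B2m (1449289_a_at) is at chr2:122147687-122153082, Psmb10 (1448632_at) at chr8:105935728-105938392 and Nlrc5 (1437176_at) at chr8:94434335-94527272. Psmb9 and Tap1 run in opposite directions from start sites with 225 bases between them.

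The stretch between the Psmb9 and Tap1 starts is shown because both genes were lower under the label tumor, and the 250 bases before the B2m start because B2m did not pass that test. Both are RefSeq sequences of GRCm38.p6, plus strand, at chr17:34187331-34187555 and chr2:122147437-122147686. Capitals mark matches, on either strand, to 4 motifs: the core of the interferon-stimulated response element (GAAANNGAAA), the X2 box core (TGACG), the Y box core (CCAAT) and an NF-kB site (GGGANNNTCC).
Psmb9-Tap1: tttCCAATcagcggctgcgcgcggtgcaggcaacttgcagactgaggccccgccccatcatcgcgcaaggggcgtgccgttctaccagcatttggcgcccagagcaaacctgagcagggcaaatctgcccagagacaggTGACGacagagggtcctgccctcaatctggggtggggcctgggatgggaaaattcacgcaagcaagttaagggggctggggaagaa
B2m: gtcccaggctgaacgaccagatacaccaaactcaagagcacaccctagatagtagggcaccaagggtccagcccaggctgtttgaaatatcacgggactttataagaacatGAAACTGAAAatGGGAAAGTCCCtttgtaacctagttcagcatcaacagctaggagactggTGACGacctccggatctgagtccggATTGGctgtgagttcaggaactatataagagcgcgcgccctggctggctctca

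In the 250 bases before its start, B2m holds all 4 motifs, with the response element core 139 to 130 bases upstream and the NF-kB site overlapping its own match on the other strand. Tap1 and Psmb9 hold the X2 and Y box cores, in DNA they share, and Tapbp holds the Y box core. Psmb8 and Psmb10 hold none of the 4 motifs there. Sequences were found for 6 of the 8 genes. Among 32851 windows of the same length, 2.98% held the response element core, 17.8% the X2 core, 33.8% the Y core and 3.86% the NF-kB site.

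Averaged over the 6 transductions, 4 of the 8 genes fell and 1 rose under the label tumor relative to the label spleen. Psmb9 fell most, by 1.09 on the log2 scale (2.14-fold lower). Psmb8, Tap1 and Tap2 fell by 0.57, 0.52 and 0.37, and Nlrc5 rose by 0.39. B2m, Tapbp and Psmb10 did not pass the test. Over all genes 37.6% rose and 33.1% fell in this comparison, with a median difference of 0.13, so 5 of 8 is no more than the share of all genes that were called, and it is the sizes and directions of single genes that are described here.

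**Figure D1:**
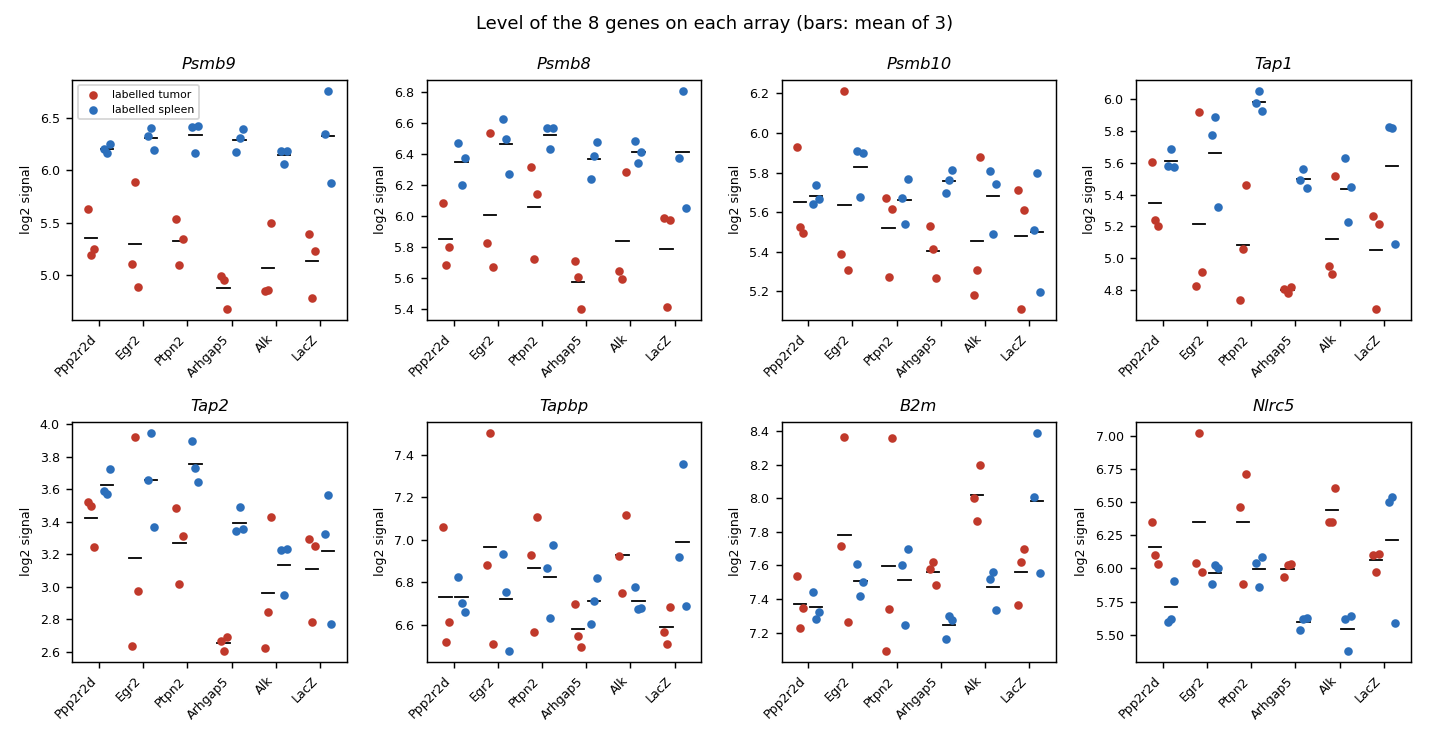
Log2 signal of the 8 genes on each of the 36 arrays, with 1 panel a gene, arrays labelled tumor left of arrays labelled spleen in each transduction, and bars at the mean of 3 arrays. Psmb9 separates the labels in all 6 transductions, whereas Tapbp overlaps in all but 1 (LacZ).

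Psmb9 encodes the immunoproteasome subunit beta1i, the counterpart of Psmb6. Its level was 4.68 at the lowest, 5.15 at the median and 5.89 at the highest over the 18 arrays labelled tumor, and 5.88, 6.23 and 6.76 over the 18 labelled spleen. A single array labelled tumor, Egr2 array 2, reached above the lowest array labelled spleen, and within each of the 6 transductions the labels did not overlap. The averaged difference was -1.09 (SE 0.10, adjusted p = 9.17e-11, limma).

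Within transductions Psmb9 fell in all 6 (SE 0.25 in each), and the all-gene share called in these comparisons was 22.6% in Ppp2r2d, 26.4% in Egr2, 49.2% in Ptpn2, 32.3% in Arhgap5, 53.2% in Alk and 25.2% in LacZ cells. In Arhgap5 cells it was 4.99, 4.96 and 4.68 under the label tumor, against 6.17, 6.30 and 6.39 under the label spleen (difference -1.42, SE 0.25, adjusted p = 5.21e-05). In LacZ cells it was 5.39, 4.78 and 5.23, against 6.35, 6.76 and 5.88 (difference -1.20, adjusted p = 0.000551). The Arhgap5 arrays labelled tumor were the lowest group and the LacZ arrays labelled spleen were spread more than the other labelled spleen groups (SD 0.44, against 0.044 to 0.15).

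In Alk cells Psmb9 was 4.84, 4.86 and 5.50 under the label tumor, against 6.19, 6.06 and 6.18 under the label spleen (difference -1.08, adjusted p = 0.00128). In Egr2 cells it was 5.11, 5.89 and 4.89, against 6.33, 6.41 and 6.20 (difference -1.02, adjusted p = 0.00282). The Egr2 array at 5.89 has the high floor named above, and without all 3 such arrays the difference was -1.31.

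In Ptpn2 cells Psmb9 was 5.53, 5.10 and 5.35 under the label tumor, against 6.42, 6.17 and 6.42 under the label spleen (difference -1.01, SE 0.25, adjusted p = 0.0023). In Ppp2r2d cells it was 5.63, 5.19 and 5.25, against 6.20, 6.16 and 6.25 (difference -0.85, adjusted p = 0.013). The Ppp2r2d difference was the smallest of the 6, and its call was lost without Ppp2r2d labelled tumor array 2 (-0.77, adjusted p = 0.0652) or array 3 (-0.80, adjusted p = 0.0543). Fitted on the compared arrays alone, Psmb9 missed the threshold in Egr2 (adjusted p = 0.103), Ptpn2 (0.0507) and LacZ cells (0.117). It passed in Ppp2r2d (0.00435), Arhgap5 (0.000161) and Alk cells (0.000174).

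Psmb8 encodes beta5i, the counterpart of Psmb5. It was 5.40, 5.76 and 6.53 (lowest, median, highest) over arrays labelled tumor and 6.05, 6.42 and 6.81 over arrays labelled spleen, and the labels did not overlap within 5 of 6 transductions. The averaged difference was -0.57 (SE 0.10, adjusted p = 1.61e-05), lower in 6 of 6 transductions. It passed within a single transduction, Arhgap5, at 5.71, 5.61 and 5.40 under the label tumor, against 6.24, 6.39 and 6.48 under the label spleen (difference -0.80, SE 0.25, adjusted p = 0.014). That call was lost without Arhgap5 labelled tumor array 3 (-0.71, adjusted p = 0.0656) or labelled spleen array 3 (-0.74, adjusted p = 0.0548). The second Psmb8 probe set, with a mean log2 signal of -2.33, gave 0.39 (adjusted p = 0.0451, adjusted across probe sets), and with both sets averaged the difference was -0.088 (adjusted p = 0.521), so the fall is that of the bright set.

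Psmb10 encodes beta2i, the counterpart of Psmb7. It was 5.11, 5.51 and 6.21 under the label tumor and 5.19, 5.72 and 5.91 under the label spleen, so the labels overlapped. Its averaged difference of -0.16 (SE 0.10, adjusted p = 0.143) did not pass. Without Egr2 labelled tumor array 2 it was -0.21 (adjusted p = 0.0399), and after quantile normalization of the table it was 0.094 (adjusted p = 0.171), so no direction is given. Within LacZ cells Psmb10 rose under the label tumor after quantile normalization (0.47, limma, adjusted p = 0.0143) and after cyclic loess (0.47, adjusted p = 0.0266).

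The 3 immunoproteasome genes did not shift by equal amounts. Psmb9 minus Psmb8 on the same array, a difference that any common scaling of the array leaves as it is, was -0.80 to -0.45 over the 18 arrays labelled tumor and -0.29 to -0.027 over the 18 labelled spleen. The labels did not overlap, and the mean shift was -0.53, lower in 6 of 6 transductions. In Alk cells it was -0.80, -0.73 and -0.78 under the label tumor, against -0.29, -0.28 and -0.23 under the label spleen. The level of such a difference compares different probes and means nothing by itself, and only its shift between labels is read. The pairs were set up with earlier results of these data known, so they are described with no test.

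Each immunoproteasome gene was also set against the constitutive subunit it replaces. Psmb5 fell by 1.36, Psmb6 by 0.71 and Psmb7 by 0.89 under the label tumor (adjusted p = 3.53e-06, 6.23e-07 and 1.75e-06, limma). Psmb8 minus Psmb5 shifted by 0.79 and Psmb10 minus Psmb7 by 0.72, both higher under the label tumor in 6 of 6 transductions, whereas Psmb9 minus Psmb6 shifted by -0.39, lower in 6 of 6. Over single arrays Psmb8 minus Psmb5 was 0.57 to 5.34 under the label tumor and 0.082 to 0.83 under the label spleen. Psmb9 minus Psmb6 was -1.21 to 0.27, against -0.71 to -0.20, and Psmb10 minus Psmb7 was -0.11 to 2.11, against -0.84 to -0.033. The labels overlapped in all 3, and these shifts are a description with no test. On Ptpn2 labelled tumor array 1 Psmb5 was 0.98, against 5.00 and 4.96 on the other arrays of its group, and without it the 3 shifts were 0.55, 0.62 and -0.45. Without the 3 high-floor arrays they were 0.89, 0.75 and -0.34, and Psmb9 minus Psmb6 was then lower in 5 of 6 transductions.

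**Figure D2:**
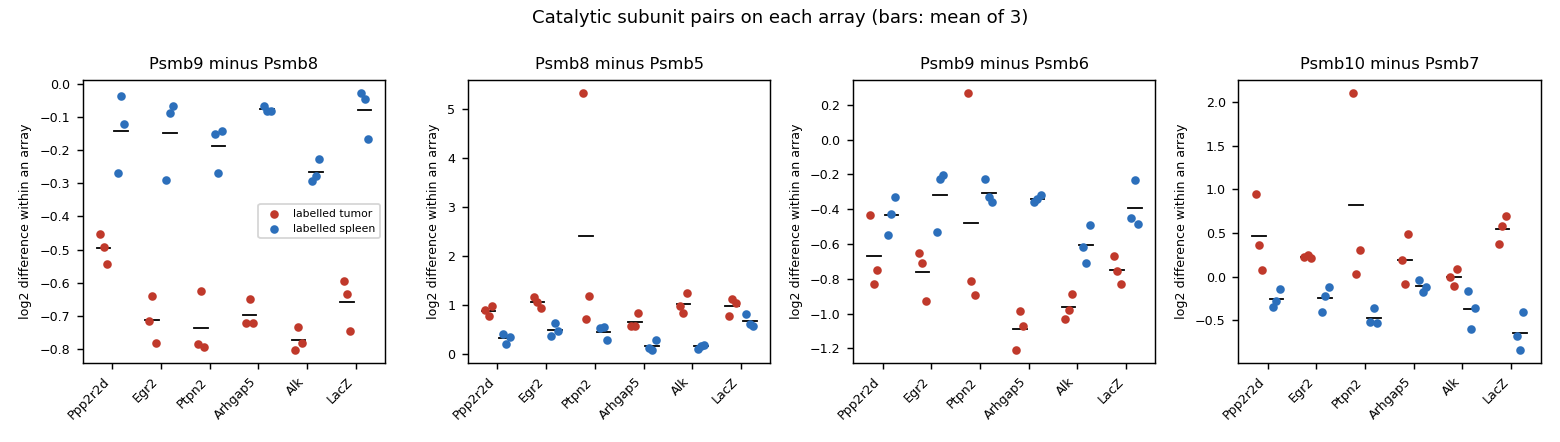
Log2 difference between 2 proteasome subunit genes on the same array, in 4 panels (Psmb9 minus Psmb8, Psmb8 minus Psmb5, Psmb9 minus Psmb6, Psmb10 minus Psmb7), by transduction, arrays labelled tumor left of arrays labelled spleen, with bars at the mean of 3. Psmb9 minus Psmb8 lies at -0.80 to -0.45 under the label tumor and at -0.29 to -0.027 under the label spleen, and the outlying points of the other panels are Ptpn2 labelled tumor array 1.

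Tap1 encodes one chain of the peptide transporter. It was 4.68, 5.01 and 5.92 (lowest, median, highest) over arrays labelled tumor and 5.09, 5.60 and 6.05 over arrays labelled spleen. In all, 10 of the 18 arrays labelled tumor lay below every array labelled spleen, and the averaged difference was -0.52 (SE 0.11, adjusted p = 0.000139), lower in 6 of 6 transductions. In Ptpn2 cells Tap1 was 4.74, 5.06 and 5.46 under the label tumor, against 5.98, 6.05 and 5.92 under the label spleen (difference -0.90, SE 0.27, adjusted p = 0.00871). These groups did not overlap, and without Ptpn2 labelled tumor array 1 the difference was -0.73 (adjusted p = 0.052).

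In Arhgap5 cells Tap1 was 4.81, 4.78 and 4.82 under the label tumor, against 5.49, 5.56 and 5.44 under the label spleen (difference -0.70, SE 0.27, adjusted p = 0.048). The groups did not overlap, but this call sits at the threshold and was lost on leaving out any of 24 of the 36 arrays in turn, with differences of -0.72 to -0.66. The 3 other Tap1 probe sets had mean log2 signals of 0.34, -2.94 and -3.36 and gave averaged differences of -0.14, 0.55 and 0.50. Their adjusted p, across probe sets, was 0.173, 0.0349 and 0.0557 (limma), so the set at -2.94 passed in the opposite direction. The mean over all 4 sets gave 0.094 (adjusted p = 0.542). The fall is therefore that of the bright set, which the rule selects.

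Tap2 encodes the partner chain. It was 2.60, 3.13 and 3.92 under the label tumor and 2.77, 3.53 and 3.95 under the label spleen, with overlap, and its averaged difference was -0.37 (SE 0.11, adjusted p = 0.00462), lower in 6 of 6 transductions. After quantile normalization it was 0.047 (adjusted p = 0.592) and after cyclic loess 0.0023 (adjusted p = 0.979), so the fall of Tap2 was not seen after either scaling. In Arhgap5 cells Tap2 was 2.66, 2.60 and 2.69 under the label tumor, against 3.34, 3.49 and 3.35 under the label spleen (difference -0.74, SE 0.27, adjusted p = 0.0336). Leaving out any 1 of these 6 arrays gave -0.77 to -0.69 with adjusted p of 0.0617 to 0.101.

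Tap1 and Psmb9, which start 225 bases apart, both fell but by unequal amounts. Psmb9 minus Tap1 on the same array was -0.14 to 0.79 under the label tumor and 0.11 to 0.95 under the label spleen, with medians of 0.018 and 0.65. The mean shift was -0.57, lower in 6 of 6 transductions, and in 5 of 6 without the 3 high-floor arrays (-0.52).

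Tapbp encodes tapasin, which bridges the transporter and the class I molecule. It was 6.49, 6.69 and 7.50 under the label tumor and 6.48, 6.73 and 7.36 under the label spleen. The labels overlapped almost fully, and the averaged difference was near 0 (-0.0042, SE 0.096, adjusted p = 0.969). The dimmer second Tapbp set gave -0.56 (SE 0.14, adjusted p = 0.00118, adjusted across probe sets), so the 2 sets disagree and no statement on Tapbp rests on both.

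B2m encodes the invariant light chain of every class I molecule. It was 7.09, 7.60 and 8.36 under the label tumor and 7.16, 7.47 and 8.39 under the label spleen. The averaged difference was 0.14 (SE 0.11, adjusted p = 0.266), close to the median of all genes of 0.13, and the second B2m set gave 0.20 (adjusted p = 0.0975, likewise). After quantile normalization the main set gave -0.086 and after cyclic loess 0.20, which passed (adjusted p = 2e-04), so its sign differed between scalings.

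Nlrc5 encodes the class I transactivator. It was 5.88, 6.10 and 7.02 under the label tumor and 5.38, 5.75 and 6.54 under the label spleen, with overlap. The averaged difference was 0.39 (SE 0.11, adjusted p = 0.00191), higher in 5 of 6 transductions, the exception being LacZ (-0.15, adjusted p = 0.679). Its direction was thus opposite to that of Psmb9, Psmb8 and Tap1 on the same arrays.

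In Alk cells Nlrc5 was 6.35, 6.35 and 6.61 under the label tumor, against 5.62, 5.38 and 5.64 under the label spleen (difference 0.89, SE 0.26, adjusted p = 0.00647). The groups did not overlap. In LacZ cells it was 6.10, 5.98 and 6.11, against 6.50, 6.54 and 5.59, with overlap. LacZ arrays differ as a whole: the median difference of all genes between the labels was -0.48 in LacZ cells, against -0.11 to 0.34 with the other hairpins. After quantile normalization Nlrc5 was higher under the label tumor in 6 of 6 transductions, by 0.35 (LacZ, adjusted p = 0.0481) to 0.95 (Alk, adjusted p = 1.61e-06), and after cyclic loess it passed in 4 of 6.

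Between scalings, Psmb9, Psmb8, Tap1 and Nlrc5 kept their direction and their call in the averaged comparison under both quantile normalization (-0.85, -0.39, -0.22 and 0.60) and cyclic loess (-0.87, -0.38, -0.28 and 0.59). Quantile normalization moved the median of all genes to 0.075 and cyclic loess to 0.0069. Within transductions 11 of 48 tests passed on the deposited values (1 higher, 10 lower). In these comparisons 22.6% (Ppp2r2d) to 53.2% (Alk) of all genes were called. After quantile normalization 18 passed (7 higher, 11 lower) and after cyclic loess 19 (7 higher, 12 lower). Without the 3 high-floor arrays 16 passed. No all-gene share stands beside the counts under these other settings, so their rise is not read as a result. Psmb9 was lower in all 6 transductions on the deposited values and under each of these settings.

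The order of the 12 group means was read for each gene. Psmb9 ran from 6.33 ± 0.15 (Ptpn2 labelled spleen, SD, n = 3) down to 4.87 ± 0.17 (Arhgap5 labelled tumor, SD, n = 3), with all 6 labelled spleen groups above all 6 labelled tumor groups. Of its 11 pairs of neighbours 10 overlapped, and the exception was the step between the labels (5.36 in Ppp2r2d labelled tumor, 6.14 in Alk labelled spleen). Psmb8 also had all 6 labelled spleen groups on top, from 6.52 (Ptpn2) down to 5.57 (Arhgap5 labelled tumor), and all 11 neighbours overlapped.

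Tap1 was highest in Ptpn2 cells labelled spleen (5.98 ± 0.065, SD, n = 3), which did not overlap the next group, Egr2 labelled spleen (5.66 ± 0.30, SD, n = 3). It was lowest in Arhgap5 cells labelled tumor (4.80 ± 0.018, SD, n = 3), and the other 10 neighbours overlapped. Tap2 had the same top and bottom groups (3.76 and 2.65), and its group means mixed the labels. For Psmb10 (5.83 to 5.40), Tapbp (6.99 to 6.58), B2m (8.02 to 7.25) and Nlrc5 (6.44 to 5.54) all 11 neighbours overlapped. B2m and Nlrc5 were highest in Alk cells labelled tumor, and LacZ cells labelled spleen came next for B2m (7.98).

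The group means of all members follow, in the order Ppp2r2d, Egr2, Ptpn2, Arhgap5, Alk and LacZ cells under each label. Psmb9 averaged 5.36, 5.30, 5.32, 4.87, 5.07 and 5.13 under the label tumor, against 6.21, 6.31, 6.33, 6.29, 6.14 and 6.33 under the label spleen (group SDs 0.044 to 0.53, n = 3 each). Psmb8 averaged 5.85, 6.01, 6.06, 5.57, 5.84 and 5.79 under the label tumor, against 6.35, 6.46, 6.52, 6.37, 6.41 and 6.41 under the label spleen (group SDs 0.07 to 0.46, n = 3 each). For both genes every mean under the label tumor lay below every mean under the label spleen. Psmb10 averaged 5.65, 5.64, 5.52, 5.40, 5.46 and 5.48 under the label tumor, against 5.68, 5.83, 5.66, 5.76, 5.68 and 5.50 under the label spleen (group SDs 0.049 to 0.50, n = 3 each). Tap1 averaged 5.35, 5.22, 5.08, 4.80, 5.12 and 5.05 under the label tumor, against 5.61, 5.66, 5.98, 5.50, 5.43 and 5.58 under the label spleen (group SDs 0.018 to 0.61, n = 3 each). Tap1 was below its counterpart in each transduction, and Psmb10 too, in LacZ cells by 0.024 only. In LacZ cells the sign of Psmb10 turned after either scaling. Tap2 averaged 3.42, 3.17, 3.27, 2.65, 2.96 and 3.11 under the label tumor, against 3.63, 3.66, 3.76, 3.39, 3.13 and 3.22 under the label spleen (group SDs 0.044 to 0.67, n = 3 each). Tapbp averaged 6.73, 6.96, 6.87, 6.58, 6.93 and 6.59 under the label tumor, against 6.73, 6.72, 6.82, 6.71, 6.71 and 6.99 under the label spleen (group SDs 0.058 to 0.50, n = 3 each). Tapbp was lower under the label tumor in Arhgap5 and LacZ cells, by more in LacZ cells. B2m averaged 7.37, 7.78, 7.60, 7.56, 8.02 and 7.56 under the label tumor, against 7.35, 7.51, 7.51, 7.25, 7.47 and 7.98 under the label spleen (group SDs 0.069 to 0.67, n = 3 each). Nlrc5 averaged 6.16, 6.35, 6.35, 6.00, 6.44 and 6.06 under the label tumor, against 5.71, 5.97, 6.00, 5.59, 5.54 and 6.21 under the label spleen (group SDs 0.051 to 0.59, n = 3 each). LacZ was the one transduction in which B2m and Nlrc5 were lower under the label tumor, beside its all-gene median of -0.48.

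The other genes of the pathway were read from lists, of which 79 of 98 genes were measured, and 15 rose and 48 fell in the averaged comparison, in which 37.6% of all genes rose and 33.1% fell. After quantile normalization, and likewise after cyclic loess, 24 of the 79 rose and 40 fell. All 11 other core subunits of the proteasome fell, led by Psma1 (-1.38), Psma4 (-1.12) and Psmb2 (-0.99), with a list median of -0.61. Of 8 activators and assembly factors 7 fell, among them the assembly chaperones Psmg3 (-1.37) and Psmg1 (-1.32), while the interferon-inducible activator Psme1 gave 0.094 (adjusted p = 0.391). Psme1 rose after cyclic loess (0.21, adjusted p = 0.00316), which then gave 1 higher and 7 lower, and did not pass after quantile normalization (0.076, adjusted p = 0.16). All 7 cytosolic peptidases fell, with Thop1 (-1.96), Lap3 (-1.77) and Blmh (-1.34) the largest. The list medians were -0.78 for activators and assembly factors and -0.76 for peptidases, beside an all-gene median of 0.13. After either scaling 10 of the 11 core subunits, 7 of the 8 activators and assembly factors and 6 of the 7 peptidases still fell.

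Of 10 partners in the endoplasmic reticulum 9 fell, including the trimming peptidase Erap1 (-0.92), the disulfide isomerase Pdia3 (-0.85), the lectin chaperone Canx (-0.71) and the translocon channel Sec61a1 (-0.55), and after either scaling 7 of the 10 fell. Of 9 heavy chain and related genes 4 rose and none fell, where 37.6% of all genes rose and 33.1% fell. The largest rises were those of the lipid-presenting Cd1d1 (1.92) and the metabolite-presenting Mr1 (0.49). H2-T3 (0.48) and H2-T24 (0.37) also rose, and after either scaling 7 rose and 1 fell. H2-T3 was not among them (0.18 and 0.15, adjusted p = 0.472 and 0.43). The classical heavy chains H2-K1 (0.23, adjusted p = 0.117) and H2-D1 (0.20, adjusted p = 0.0822) did not pass on deposited values and did after quantile normalization (0.23 and 0.18, adjusted p = 0.00466 and 8.16e-05). Without Ptpn2 labelled tumor array 1 H2-K1 also passed (0.33, adjusted p = 0.00614). Heavy chain genes are near-identical copies, so probes of one may read another.

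**Figure D3:**
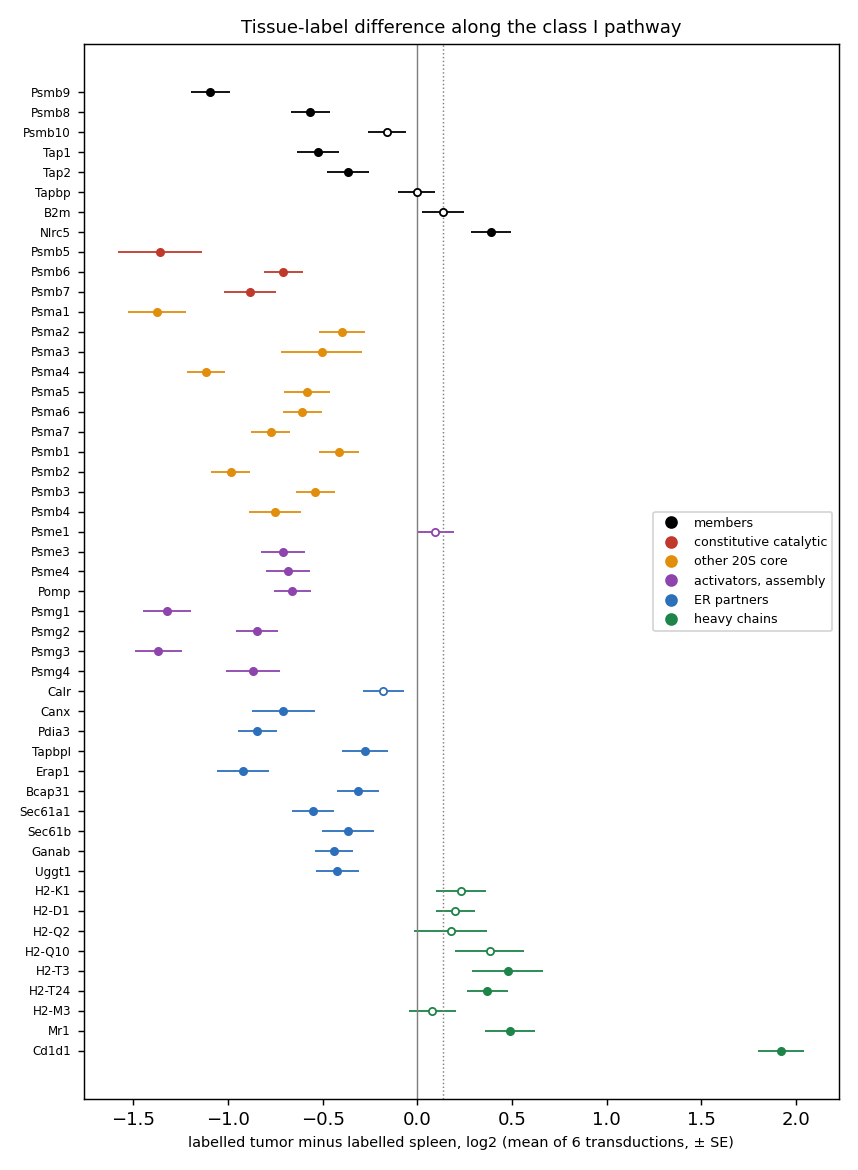
Averaged log2 difference (labelled tumor minus labelled spleen, mean of 6 transductions, bars ± SE) for the 8 genes and 5 pathway lists, coloured by list, filled where the adjusted p is under 0.05, with a dotted line at the all-gene median of 0.13. Proteasome and endoplasmic reticulum genes lie left of 0 except Psme1, and heavy chains, B2m and Nlrc5 lie right of it.

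Among 13 transcription factors of class I genes 3 rose and 4 fell, beside 37.6% and 33.1% of all genes. After quantile normalization 8 rose and 2 fell, and after cyclic loess 6 rose and 2 fell. No all-gene share stands beside these scaled counts, so they are not read as a result. Irf1, an interferon-induced activator, rose by 1.41 (SE 0.16, adjusted p = 6.26e-09) and was higher in 6 of 6 transductions. Irf8, which macrophages and dendritic cells express highly, fell by 3.90, beside the falls of the macrophage and MHC class II genes given above. The Y box factors Nfyb and Nfya fell by 1.04 and 0.43, and the X box factor Rfx5 by 0.32 (adjusted p = 0.0392). Nfya (adjusted p = 0.855 and 0.302) and Rfx5 (adjusted p = 0.504 and 0.734) no longer passed after quantile normalization and cyclic loess, Rfx5 with a positive sign after quantile normalization (0.049), and Rfx5 also missed the threshold without Ptpn2 labelled tumor array 1 (-0.30, adjusted p = 0.0564).

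Of 8 genes of interferon gamma signalling 5 rose and 3 fell, in a comparison where 37.6% of all genes rose and 33.1% fell. Ifng itself was 4.69 to 6.51 under the label tumor and 6.17 to 7.73 under the label spleen and fell by 1.37 (SE 0.10, adjusted p = 4.53e-13). Its receptor chains Ifngr2 (1.64) and Ifngr1 (0.59) and the kinase Jak1 (0.92) rose. Of 10 interferon-inducible genes outside the class I pathway 3 rose and 4 fell, with the GTPases Iigp1 (-1.91) and Gbp3 (-1.41) and the antiviral Rsad2 (-0.76) among the lower and the sensor Oas2 (1.38) among the higher. After either scaling 5 rose and 3 fell. The counts on deposited values lie near the all-gene shares, so none of these counts is read as a result about the inducible genes. Of the interferon gamma signalling genes, the falls of the kinase Jak2 (-0.25) and the protease Usp18 (-0.32) were not called after either scaling.

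Against LacZ under the label tumor, none of the 40 tests (8 genes by 5 hairpins) passed, and none had an unadjusted p under 0.05. The all-gene shares called were 0.995% for Ppp2r2d, 0.0275% for Egr2, 0.764% for Ptpn2, 0.368% for Arhgap5 and 0.0055% for Alk. The 40 differences ran from -0.46 (Tap2, Arhgap5) to 0.46 (B2m, Alk). For B2m in Alk cells the arrays ran from 7.86 to 8.20, against 7.37 to 7.70 in LacZ cells, which did not overlap (adjusted p = 0.294). All 5 comparisons share the 3 LacZ arrays. With array weights, whose estimation stopped before it converged, 9 of the 40 passed, 2 higher and 7 lower.

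Ptpn2 encodes a phosphatase that removes phosphate from Jak1 and so limits interferon signalling, and the 8 genes were read in full in Ptpn2 cells. Under the label tumor the Ptpn2 minus LacZ differences were 0.19 for Psmb9 (SE 0.25, adjusted p = 0.66), 0.27 for Psmb8 (SE 0.25, adjusted p = 0.517) and 0.040 for Psmb10 (SE 0.24, adjusted p = 0.934). They were 0.031 for Tap1 (SE 0.27, adjusted p = 0.954), 0.16 for Tap2 (SE 0.27, adjusted p = 0.739) and 0.28 for Tapbp (SE 0.24, adjusted p = 0.476). For B2m the difference was 0.036 (SE 0.27, adjusted p = 0.946) and for Nlrc5 0.29 (SE 0.26, adjusted p = 0.502). All 8 were above 0 and none passed, beside an all-gene median of 0.24 in this comparison, and without Ptpn2 labelled tumor array 3 B2m turned to -0.34 and Tap1 to -0.16. The dim second Psmb8 set, with a mean log2 signal of -2.33, did pass (2.15, limma, adjusted p = 0.00848, adjusted across probe sets). With both Psmb8 sets averaged the difference was 1.21 (adjusted p = 0.053).

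Under the label spleen the Ptpn2 minus LacZ differences were 0.41 for Tap1 (SE 0.27, adjusted p = 0.309) and 0.54 for Tap2 (SE 0.27, adjusted p = 0.186). For Tap1 the arrays were 5.98, 6.05 and 5.92 in Ptpn2 cells, against 5.82, 5.82 and 5.09 in LacZ cells, which did not overlap, and after quantile normalization the difference was 0.49 (adjusted p = 0.0445). With array weights, whose estimation stopped before it converged, Tap2 gave 0.59 (limma, adjusted p = 0.0301). Psmb9 gave 0.0052 (SE 0.25, adjusted p = 0.991), Psmb8 0.11 (SE 0.25, adjusted p = 0.794) and Psmb10 0.16 (SE 0.24, adjusted p = 0.688). Tapbp gave -0.16 (SE 0.24, adjusted p = 0.664), B2m -0.47 (SE 0.27, adjusted p = 0.246) and Nlrc5 -0.22 (SE 0.26, adjusted p = 0.596). The Ptpn2 transcript itself did not pass under either label (-0.38 and -0.79, adjusted p = 0.417 and 0.0727), so the depth of the knockdown on these arrays is not settled.

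Of the 10 interferon-inducible genes outside the class I pathway, 4 were higher in Ptpn2 than in LacZ cells under the label spleen and none was lower, beside 9.58% of all genes called. They were Iigp1 (2.65, adjusted p = 4.5e-06, limma), Irgm1 (1.14, adjusted p = 0.0243), Ifit1 (1.10, adjusted p = 0.0409) and Igtp (0.90, adjusted p = 0.0351). Iigp1 was also called higher in Ppp2r2d, Arhgap5 and Alk cells under the label spleen, against the same LacZ arrays, so its rise is not particular to Ptpn2 cells. The list median was 0.98, against -0.15 over all genes. Under the label tumor Ifit1 was lower in Ptpn2 cells (-1.73, adjusted p = 0.00744), and the list median was -0.20, against 0.24 over all genes. Ifit1 was also called lower than LacZ in Arhgap5 cells under that label. Of all 79 pathway genes, 6 were higher and 1 lower under the label spleen, and Ifit1 alone was called under the label tumor. None of the 8 genes passed under either label on deposited values of its brightest probe set.

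The remaining Ptpn2 comparisons set the labels against each other. Beside Psmb9 and Tap1, given above, the tissue differences in Ptpn2 cells were -0.46 for Psmb8 (SE 0.25, adjusted p = 0.117), -0.14 for Psmb10 (SE 0.24, adjusted p = 0.627), -0.49 for Tap2 (SE 0.27, adjusted p = 0.125), 0.043 for Tapbp (SE 0.24, adjusted p = 0.885), 0.084 for B2m (SE 0.27, adjusted p = 0.802) and 0.36 for Nlrc5 (SE 0.26, adjusted p = 0.239). Against the tissue differences of LacZ cells none of the 8 differed in the fit, with values of -0.38 for Tap1 and Tap2 (SE 0.38 each, adjusted p = 0.505 and 0.501), 0.51 for B2m (SE 0.38, adjusted p = 0.353) and 0.50 for Nlrc5 (SE 0.37, adjusted p = 0.326). Tapbp gave 0.44 (SE 0.33, adjusted p = 0.347), Psmb8 0.16 (SE 0.35, adjusted p = 0.783), Psmb9 0.19 (SE 0.36, adjusted p = 0.744) and Psmb10 -0.12 (SE 0.34, adjusted p = 0.839).

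Against LacZ under the label spleen none of the 40 tests passed either, and 4 had an unadjusted p under 0.05. The all-gene shares called were 12.8% for Ppp2r2d, 3.23% for Egr2, 9.58% for Ptpn2, 8.89% for Arhgap5 and 7.4% for Alk. The lowest differences were those of B2m, -0.74 in Arhgap5 cells (adjusted p = 0.0797) and -0.63 in Ppp2r2d cells (adjusted p = 0.116), and of Nlrc5, -0.67 in Alk cells (adjusted p = 0.104) and -0.62 in Arhgap5 cells (adjusted p = 0.115). B2m was 7.16, 7.30 and 7.28 in Arhgap5 cells, against 8.01, 8.39 and 7.55 in LacZ cells, which did not overlap.

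LacZ labelled spleen array 3 lay far from the other LacZ arrays for Nlrc5 (5.59, against 6.50 and 6.54). Without it 4 of the 40 passed, all lower than LacZ: B2m in Arhgap5 cells (-0.95, adjusted p = 0.0333) and Nlrc5 in Ppp2r2d (-0.81, adjusted p = 0.0363), Arhgap5 (-0.93, adjusted p = 0.0217) and Alk cells (-0.98, adjusted p = 0.0216). Without Egr2 labelled tumor array 2 or Ptpn2 labelled tumor array 3, B2m in Arhgap5 cells passed (-0.74, adjusted p = 0.0445 and 0.0421). The LacZ labelled spleen arrays also had a Gapdh 3' minus 5' difference of 0.83 to 1.39, against 0.25 to 0.83 for the other arrays labelled spleen, and its part in these differences was not tested. With array weights 6 of the 40 passed.

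**Figure D4:**
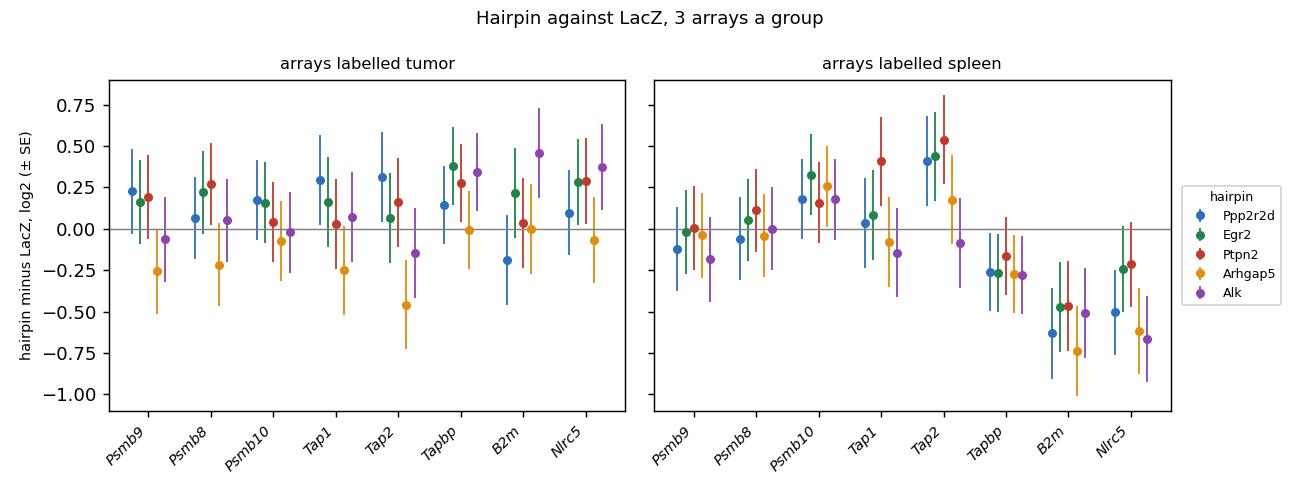
Log2 difference of each hairpin minus LacZ (bars ± SE) for the 8 genes, under the label tumor on the left and the label spleen on the right, with 3 arrays a group. B2m and Nlrc5 lie below 0 with all 5 hairpins under the label spleen, all of them against the same 3 LacZ arrays, and no difference passes the test.

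The tissue difference of each hairpin was set against that of LacZ in 40 further tests, of which 1 passed and 2 had an unadjusted p under 0.05. The all-gene shares called were 0.786% for Ppp2r2d, 0% for Egr2, 17.3% for Ptpn2, 2.82% for Arhgap5 and 25.4% for Alk. Nlrc5 passed in Alk cells, with a tissue difference higher than that of LacZ by 1.04 (SE 0.37, adjusted p = 0.0361), where the median of all genes was 0.46. Leaving out any of 10 of the 12 arrays involved gave 0.88 to 1.09 with adjusted p of 0.0511 to 0.132, and only LacZ labelled spleen array 3 and Alk labelled tumor array 2 could be left out with the call kept. After quantile normalization the value was 0.60 (adjusted p = 0.0669) and after cyclic loess 0.53 (adjusted p = 0.233).

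B2m in Alk cells came next, at 0.97 (SE 0.38, adjusted p = 0.062). It passed without LacZ labelled spleen array 3 (1.18, adjusted p = 0.0234) and without Egr2 labelled tumor array 2 or Ptpn2 labelled tumor arrays 1 or 3 (adjusted p = 0.0365, 0.0435 and 0.0315). Of the 79 pathway genes measured, 5 passed in Alk cells against the LacZ tissue difference (2 higher, 3 lower) and 7 in Ptpn2 cells (1 higher, 6 lower).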

How the data were processed

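RNA from CD8 T cells of 12 groups (6 transductions by 2 tissue labels, 3 arrays each) was measured on Affymetrix 3' arrays after Trizol extraction and 1 cycle of biotin labelling, per the labels' protocols. The values deposited by the authors are log2 signals, as their range shows, made with RMA per the submitters' processing notes. The sources used here give neither its version nor how arrays were centred, and array medians lay between -0.48 and -0.23. Precision is limited by 3 arrays a group.

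Of 45101 probe sets, 34945 had 1 symbol, 932 several, 9160 none and 64 were controls. Each of the 18193 genes was represented by its probe set with the highest mean. R 4.3.3 with limma 3.58.1 (lmFit, eBayes) fitted 1 coefficient per group (24 residual and 6.75 prior degrees of freedom), checked on simulated data. Tests are two-sided, in 22 comparisons with Benjamini-Hochberg adjustment over all genes. Coordinates and promoter sequences are RefSeq's (GRCm38.p6).

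The 8 genes and all lists were chosen with earlier results of these data known. Named by rule were the 8 genes, up to 4 called genes with the largest difference of each list, and Psmb5, Psmb6, Psmb7, Irf1, Rfx5, H2-K1 and H2-D1. Ptpn2 comparisons are given in full. Psme1, Jak2, Usp18, Cd8a, Irgm1, Igtp and Ifit1 were named after their values were seen. Alternatives were the mean of all probe sets, each other probe set, quantile normalization, cyclic loess, a filter on low values (3 or more arrays above the 40th percentile), array weights, a replicate block, only the compared arrays, 5 hairpins without LacZ, and leaving out each array. Leaving out the 3 high-floor arrays, and repeating the list counts under other scalings, were added after seeing the data. Replicate numbers share no stated source, and the arrays were not treated as paired in the main fit. Over 18 pairs of same-numbered arrays residual correlations lay between -0.24 and 0.24, with 4 above 0.1. Such residuals also hold array-wide differences, so the correlations cannot show whether same-numbered arrays share a source.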

Additional observations from a re-analysis of the deposited data

Results flagged for a closer look

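The tissue difference of Nlrc5, labelled tumor minus labelled spleen, was higher in Alk cells than in LacZ cells by 1.04 on the log2 scale (limma, adjusted p = 0.0361). It stands here because a test of the difference between 2 transductions passed. The tissue differences themselves were 0.89 in Alk cells and -0.15 in LacZ cells, and the call is lost without any of 10 of the 12 arrays involved.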

How the results depend on the processing

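The counts of passed tests were 5 of 8 (labels averaged), 11 of 48 (labels within transductions), 0 of 40 (hairpins, labelled tumor), 0 of 40 (hairpins, labelled spleen) and 1 of 40 (tissue differences against LacZ). With labels averaged, the called genes changed with the setting. With the mean of probe sets Tap1 and Psmb8 lost their calls and Tapbp passed (-0.28, limma, adjusted p = 0.0111). Tap2 lost its call after either scaling, and B2m passed after cyclic loess. Psmb10 passed with array weights (-0.23, adjusted p = 0.00402) and without the 3 high-floor arrays (-0.19, adjusted p = 0.0483). Within transductions 18 passed after quantile normalization, 19 after cyclic loess and 26 with array weights. For hairpins, array weights gave 9 under the label tumor and 6 under the label spleen, and quantile normalization 2 under the label spleen. For tissue differences against LacZ the count was 3 with the mean of probe sets, 0 after quantile normalization, 0 after cyclic loess, 0 with the filter, 5 with array weights, 0 on the compared arrays alone and 2 without the 3 high-floor arrays. Leaving out 1 array at a time gave 5 to 6, 8 to 16, 0 to 0, 0 to 4 and 0 to 2. With a replicate block the counts were 5, 10, 0, 0 and 1, fixed or random (consensus correlation -0.035), and the call lost was Tap1 in Arhgap5 cells (adjusted p = 0.0593 and 0.0534). The cause of these changes was not tested. The all-gene shares given above are those of the deposited values. Counts under the alternatives have no such share beside them and are not read as results about the 8 genes.

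Signs turned in the averaged comparison for Tap1 (0.094 with the mean of probe sets, 0.55 and 0.50 on 2 dim sets), Psmb8 (0.39 on its dim set), B2m (-0.086, quantile), Tap2 (0.047, quantile; 0.0023, loess), Psmb10 (0.094, quantile; 0.069, loess) and Tapbp (0.058, quantile; 0.13, loess; 0.075 without LacZ; -0.049 to 0.034 leaving out 1 array). Tap1 within Ptpn2 cells turned to 0.43 with the mean of probe sets and 1.72 and 1.25 on the dim sets, and within Arhgap5 cells to 0.061, 0.41 and 0.71. Of these, the 1.72 passed (limma, adjusted p = 0.0153, adjusted across probe sets). For Ptpn2 against LacZ, signs turned under the label tumor for B2m (-0.12, quantile; -0.15, loess; -0.34 without the high-floor arrays), Tap1 (-0.0012, quantile; -0.014, loess; -0.049, weights; -0.16 without the high-floor arrays), Tap2 (-0.029, weights), Psmb10 (-0.036, quantile; -0.019, loess; -0.13, weights; -0.0075 without the high-floor arrays) and Tapbp (-0.23, mean of sets; -0.73, dim set). Under the label spleen they turned for Tap1 (-0.28, mean of sets; -0.99 and -1.01, dim sets), Psmb8 (-0.32, mean of sets; -0.75, dim set) and Tapbp (0.44, mean of sets; 0.19, quantile; 0.12, loess; 0.020 without the high-floor arrays; 1.03, dim set). None of these Ptpn2 differences against LacZ passed on deposited values. Leaving out 1 array, they ran under the label tumor from -0.34 to 0.29 (B2m), -0.16 to 0.20 (Tap1), -0.0044 to 0.29 (Tap2) and -0.14 to 0.16 (Psmb10), and under the label spleen from -0.31 to 0.020 (Tapbp), -0.068 to 0.31 (Psmb8) and -0.22 to 0.22 (Psmb9). Probe sets near the floor carry little signal over background.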

Other observations

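Within a label, the 8 genes followed each other across arrays to differing degrees. Over the 18 arrays labelled tumor the 28 pairwise Spearman correlations ran from -0.09 to 0.95 with a median of 0.65, and over the 18 arrays labelled spleen from -0.07 to 0.78 with a median of 0.50. After quantile normalization they ran from -0.72 to 0.84 (median 0.50) and from -0.34 to 0.72 (median 0.22). These are descriptions over arrays that share groups and scaling.

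The genes most like the mean of the 8 were Rasal3, Rabgap1l, Eif4g3, Arhgap45 and Sf3b3 (the lower of the Spearman correlations within the 2 labels was 0.885 to 0.892, over the 17 arrays labelled tumor other than Ptpn2 array 1 and 18 labelled spleen). On quantile-normalized values, a choice made after seeing the data, the 5 genes were Bri3bp, Dgka, Sik2, Nckap1l and Smc1b (0.633 to 0.716), so the 2 scalings named no gene in common.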
